A study of Mus musculus with 6 samples.

Results

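The genes described here are 43 mouse genes of mitosis: the chromosomal passenger complex, the kinases and cyclins of mitotic entry, the spindle checkpoint, the kinetochore, and the anaphase-promoting complex or cyclosome (APC/C) with its coactivators and inhibitor. They were chosen by name, and each was matched by its symbol to the 37620 genes of the deposited count table, where all 43 were found and all 43 passed the filter on low counts. Polyadenylated RNA was sequenced from E14 mouse embryonic stem cells (ESCs) of the 129/Ola strain grown in 15% fetal bovine serum, as 3 wild-type libraries and 3 libraries of the *Ube2d3*-S138A mutant, in which a serine near the end of the ubiquitin-conjugating enzyme UBE2D3 is replaced by alanine. The mutant cells were made with CRISPR/Cas9 and grown from an isolated clone, so what is due to the substitution and what to that clone cannot be told apart here. The wild-type libraries carry the numbers 1, 2 and 3 in their labels, whereas the mutant columns cannot be tied to a replicate label and are named S138A A, B and C here. The labels do not say whether libraries of a genotype came from separate cultures, so the p-values measure the spread between these libraries, which may be technical.

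As background, entry into mitosis is driven by CDK1 bound to cyclin A or cyclin B, and the Aurora and Polo-like kinases then build the spindle and correct the attachment of chromosomes to it. The spindle checkpoint holds the APC/C inactive until every kinetochore is attached. The APC/C is a ubiquitin ligase that, with its coactivator CDC20 and later with FZR1 (CDH1), marks securin and the cyclins for destruction, and it receives ubiquitin from conjugating enzymes, the class of protein to which UBE2D3 belongs. Mouse ESCs divide rapidly with short gap phases, and transcripts of many mitotic genes accumulate in G2 and mitosis through a promoter element called the cell-cycle genes homology region (CHR), which is bound by the MuvB complexes and often stands with CCAAT boxes bound by NF-Y. In bulk RNA, fewer cells in mitosis and less RNA per cell cannot be told apart. For its S138A ESCs the study reports normal growth and, by propidium iodide staining, a cell cycle profile without overt change.

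The 6 libraries held between 33227593 and 37169770 counts. Wild-type 3 and S138A C each deviated in the same direction from the other libraries of their genotype: of the 16023 genes tested, both were the highest of their genotypes at 5444 genes (34%) and both the lowest at 5421 (33.8%). The edited gene gave 472.9, 459.1 and 304.3 CPM (counts scaled to library size with TMM factors) in wild-type 1 to 3 and 491.0, 429.3 and 265.0 in S138A A to C, a log2 fold change of -0.06 (SE 0.26) with an adjusted p of 0.945 by edgeR. The substitution of a residue leaves the gene transcribed, so this level does not check the genotype. Embryonic stem cell markers (*Pou5f1*, *Nanog*, *Sox2* and 5 others) summed to between 5346 and 5986 CPM in wild-type and between 5418 and 5693 in S138A. The sum hides markers that moved in opposite directions, with 3 log2 fold changes above 0 and 5 below. They ran from -0.35 for *Zfp42*, lower in every S138A library than in any wild-type library, to 0.41 for *Klf4*. The 8 fibroblast and feeder markers summed to between 43.0 and 72.6 CPM in wild-type and between 79.2 and 115.4 in S138A. Most of it came from *Col1a1* and *Thy1*, while *Lum* had 0 counts in 5 of the 6 libraries and *Dcn* at most 5 counts. Of the 6 tested, 5 had log2 fold changes above 0 and 1 below, *Col1a2* at -0.26. *Col1a2*, *Pdgfrb* and *Postn* overlapped between genotypes, whereas *Col1a1*, *Col3a1* and *Thy1* lay above wild-type without overlap, beside 11.3% of all genes. Primitive endoderm markers summed to between 17.8 and 21.7 CPM in wild-type and between 20.9 and 27.8 in S138A, and these ranges overlapped. Of the 7 markers, 4 had log2 fold changes above 0 and 3 below. The lowest was *Gata6* at -0.36, below wild-type in every S138A library, and the highest was *Dab2* at 0.38. The top of the S138A range was S138A C, where *Dab2* gave 17.5 CPM, against 8.81 and 8.21 in S138A A and B. The 4 measured markers of 2-cell-like cells, led by *Zscan4c* and *Zscan4d*, summed to 44.8, 46.7 and 22.2 CPM in wild-type and to 125.8, 123.3 and 29.1 in S138A A, B and C. The part of these markers in the differences below was not tested.

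The promoters of these genes are shown first, as a sequence feature that many of the members share and that the choice of genes did not use. RefSeq promoter windows on the GRCm38.p6 build, from 250 bases before to 50 bases after the start of transcription, matched 35 of the 43 genes by symbol. A CHR (TTTGAA or TTTAAA, either strand) stood in the windows of 20 of the 35 genes (57.1%), against 8261 of all 27025 genes with a window (30.6%). A CCAAT box (CCAAT, either strand, which can share at most 1 base with a CHR) stood in 25 of the 35 (71.4%), against 41.1% of all genes. Of the 9 APC/C subunits with a window, 0 held a CHR and 4 held a CCAAT box (*Anapc5*, *Anapc10*, *Anapc11* and *Cdc27*), whereas 20 of the 26 genes in the other roles held a CHR. A match is a description of letters and not evidence of binding. The 120 bases before the start are printed 5′ to 3′ on the gene's own strand for 4 genes with a CHR, chosen as an entry cyclin, an entry kinase, an APC/C coactivator and the member with the highest CPM, and for 3 genes without, chosen for the results below. Capitals mark each CHR and each CCAAT box, read from either strand. *Ccnb1* lies at chr13:100786487-100786606 on the minus strand, *Plk1* at chr7:122159315-122159434 on the plus strand, *Cdc20* at chr4:118437344-118437463 on the minus strand and *Top2a* at chr11:99024190-99024309 on the minus strand. *Cdc27* lies at chr11:104550621-104550740 on the minus strand, *Anapc11* at chr11:120598301-120598420 on the plus strand, the first of its 2 starts, with its CCAAT box downstream of that start, and *Fzr1* at chr10:81378371-81378490 on the minus strand.
Ccnb1: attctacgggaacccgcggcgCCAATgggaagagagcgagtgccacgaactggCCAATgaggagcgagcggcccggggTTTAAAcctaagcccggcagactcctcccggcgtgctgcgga
Plk1: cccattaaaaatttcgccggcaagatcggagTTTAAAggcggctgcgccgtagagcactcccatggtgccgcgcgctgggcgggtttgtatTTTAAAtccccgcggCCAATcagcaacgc
Cdc20: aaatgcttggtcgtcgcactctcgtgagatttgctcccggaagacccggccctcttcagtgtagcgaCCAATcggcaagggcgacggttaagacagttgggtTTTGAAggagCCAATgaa
Top2a: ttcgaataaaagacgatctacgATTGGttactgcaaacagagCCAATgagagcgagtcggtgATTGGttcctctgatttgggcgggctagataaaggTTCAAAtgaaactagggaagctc
Cdc27: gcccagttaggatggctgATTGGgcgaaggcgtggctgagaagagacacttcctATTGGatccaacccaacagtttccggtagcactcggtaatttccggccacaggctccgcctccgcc
Anapc11: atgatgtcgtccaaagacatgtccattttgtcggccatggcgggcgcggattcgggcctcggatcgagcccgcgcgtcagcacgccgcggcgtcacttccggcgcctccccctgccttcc
Fzr1: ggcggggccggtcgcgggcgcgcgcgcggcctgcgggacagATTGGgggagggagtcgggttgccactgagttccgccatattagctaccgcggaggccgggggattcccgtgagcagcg

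*Ccnb1* holds its CHR 42 bases before the start with a pair of CCAAT boxes upstream of it, *Cdc20* 18 bases before the start, and *Top2a* 23 bases before the start on the other strand, while *Plk1* holds a CHR at each of 89 and 29 bases before the start. These starts are those of RefSeq. The GENCODE annotation begins *Ccnb1* at 100786570, *Cdc20* at 118437352 and *Fzr1* at 81378516, all further upstream. By GENCODE the printed stretch lies partly within *Ccnb1* and *Cdc20* and wholly within *Fzr1*, and the CHR of *Ccnb1* lies after its start. Members with a CHR had a median wild-type level of 67.6 CPM per kilobase of transcript and the 15 matched members without it a median of 17.6 (148 and 56.7 CPM when not divided by length). Of these 15, 9 are APC/C subunits, so the CHR and the role cannot be told apart in this difference of level. The median difference between genotypes lay close to 0 in both sets. The median log2 fold change was -0.05 over the 20 genes with a CHR, of which 8 lay above 0 and 12 below, and -0.004 over the 15 without, of which 6 lay above 0 and 9 below. The most negative and the most positive log2 fold changes of the whole set, -0.62 and 0.56, both belong to genes without a CHR in the window.

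In wild-type ESCs the members spanned levels from 3.94 ± 0.72 to 264.4 ± 25.4 CPM per kilobase (SD, n = 3), with each gene's level divided by the length of its transcript with the longest coding sequence. *Top2a*, the topoisomerase that untangles sister chromatids, was the highest on this scale. *Cdc20* at 207.0 ± 28.2 and *Ccnb1*, which encodes cyclin B1, at 195.4 ± 12.5 followed, and these 2 overlapped each other across libraries but not *Top2a*. *Ccnb1* has a processed pseudogene, *Ccnb1-ps*, whose sequence is 99.2% identical over 1287 bases and which had a mean of 138.5 counts per library, so a small share of its reads may be assigned to either. Within the passenger complex the levels ran from 148.5 ± 8.77 for *Birc5* (survivin), over 91.7 ± 2.13 for *Cdca8* (borealin) and 67.1 ± 5.50 for *Incenp*, to 54.3 ± 4.89 CPM per kilobase for the kinase gene *Aurkb*, and the values of *Incenp* and *Aurkb* did not overlap. Among the 10 APC/C subunits of the set, *Anapc5* gave 55.3 ± 4.59 and *Cdc27* 49.3 ± 4.97 CPM per kilobase, whose libraries overlapped. *Cdc26* gave 6.93 ± 1.47 and *Anapc10* 3.94 ± 0.72. The highest subunit was 14.0 times the lowest, or 9.29 times where CPM was not divided by length. The order depended on the length used. Per kilobase of coding sequence *Anapc11* was the highest subunit at 224.9 CPM and *Anapc4* the lowest at 15.5, *Ccnb1* (376.9), *Birc5* (334.8) and *Ccna2* (318.0) lay above *Top2a* (301.1), and *Aurkb* (102.3) lay above *Incenp* (67.1). Not divided by length, *Incenp* at 177 CPM was the highest of the passenger genes and *Top2a* at 1380.4 CPM the highest of all members. The *Cdc20* level was far above that of *Fzr1*, at 42.2 ± 4.74 CPM per kilobase. Not divided by length, the members had a median wild-type level of 130.6 CPM against 15.1 over all genes tested. Their median coefficient of variation among wild-type libraries was 9.09%, against 15.2% over all genes tested, which are mostly of lower count.

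**Figure D1:**
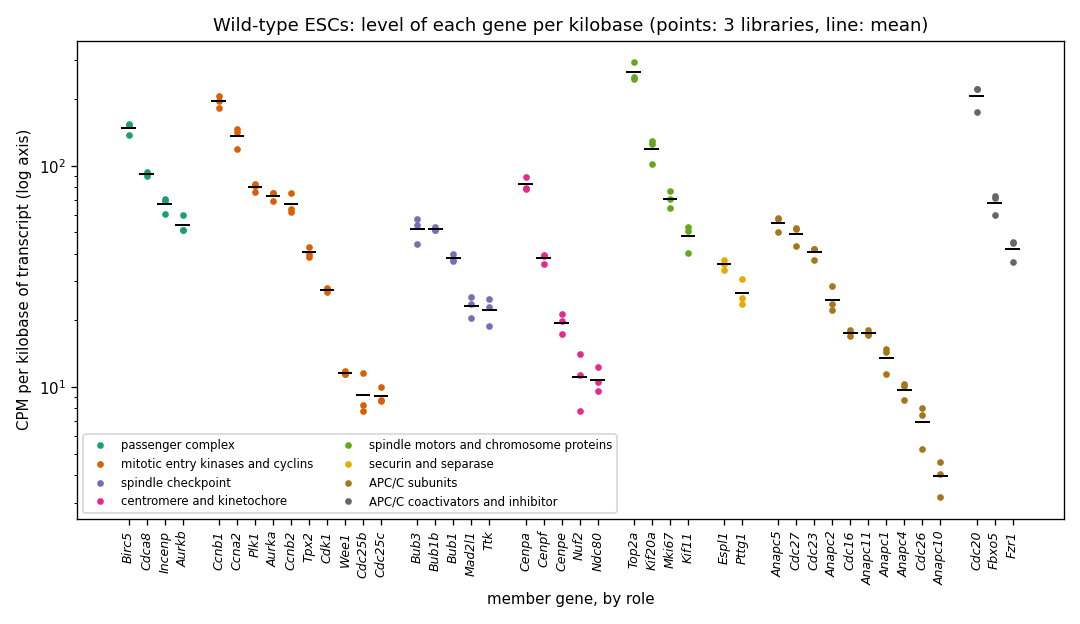
Level of each of the 43 genes in the 3 wild-type libraries (points) and their mean (line), in CPM per kilobase of transcript on a log axis, grouped by role. *Top2a*, *Cdc20* and *Ccnb1* stand highest and the APC/C subunits *Cdc26* and *Anapc10* lowest, at 6.93 and 3.94.

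The comparison of S138A with wild-type asks whether a change in UBE2D3 alters the expression of the mitotic genes. With genotype as the only term, edgeR's quasi-likelihood test called 0 of the 43 members at an adjusted p under 0.05, as it called 0 of all 16023 genes (0%). At an unadjusted p under 0.05 it gave 4 members, all lower in S138A and all APC/C subunits (*Anapc10*, *Anapc11*, *Cdc23* and *Cdc27*), against 2270 of all genes (14.2%). The median log2 fold change of the members was -0.01, with 17 above 0 and 26 below, and moved to 0.02 with upper-quartile scaling, beside 0.02 over all genes. In 2 members every S138A library lay above every wild-type library (*Cdca8* and *Cdk1*), 4.65% against 11.3% of all genes. In 9 members every S138A library lay below, 20.9% against 10.9% of all genes: *Anapc10*, *Anapc11*, *Cdc23*, *Cdc27*, *Fbxo5*, *Birc5*, *Cenpf*, *Ndc80* and *Top2a*.

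**Figure D2:**
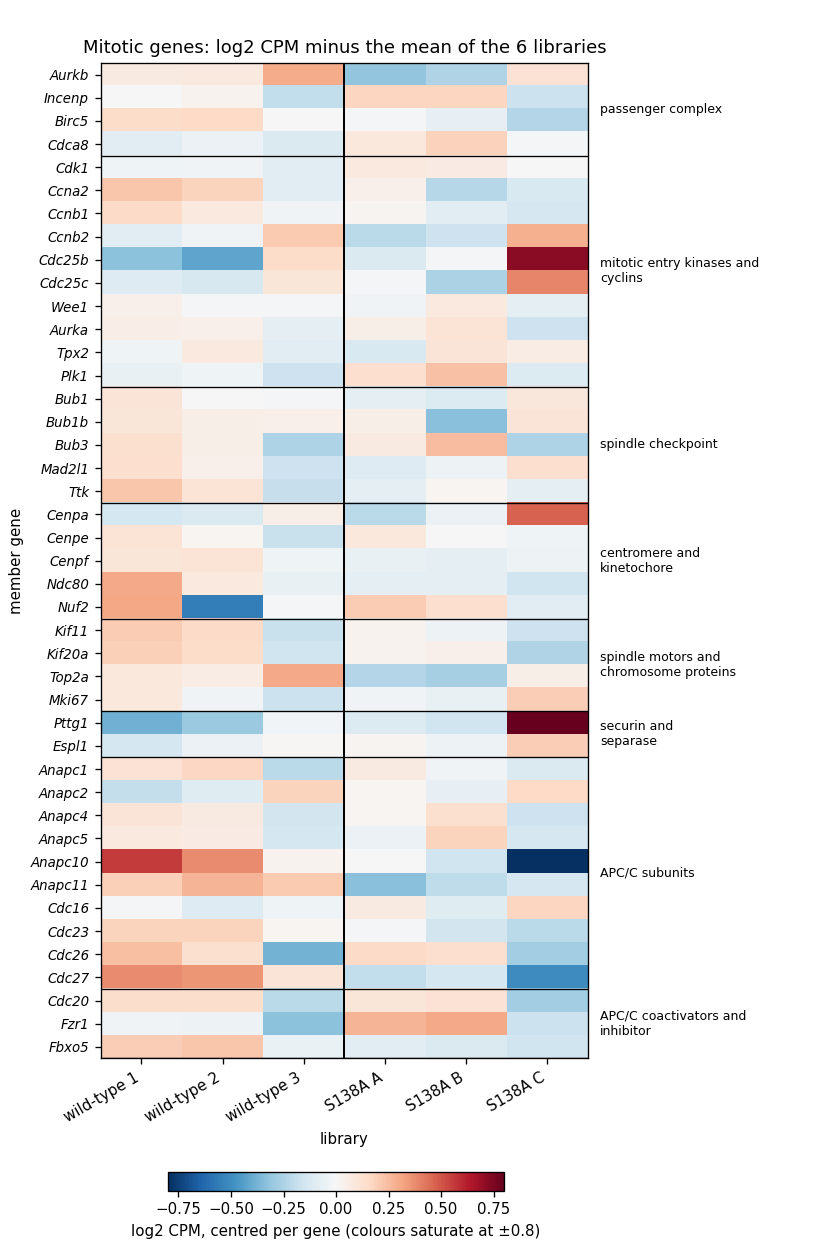
Log2 CPM of each gene minus its mean over the 6 libraries, with libraries in columns and genes in lines, with colours that saturate at 0.8 in either direction. Wild-type 3 and S138A C share a pattern across many genes, with *Pttg1*, *Cdc25b* and *Cenpa* highest in S138A C, whereas *Cdc27* and *Anapc11* separate the genotypes.

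The final digit of the column names pairs the libraries (wild-type 1 with S138A A, 2 with B and 3 with C), which the sample labels do not. Deviations from the genotype means correlated over genes within each of these pairs (0.53, 0.493 and 0.753). They did so as closely for wild-type 1 with S138A B (0.515) and wild-type 2 with S138A A (0.526). The correlations therefore cannot tell which of S138A A and B belongs with wild-type 1. With the final digit as a replicate block the test called 2 members higher in S138A (4.65%, against 1717 of all genes or 10.7%) and 6 lower (14%, against 1463 or 9.13%). The higher members were *Cdc25b* and *Fzr1*. The lower members were *Anapc10*, *Anapc11*, *Cdc23*, *Cdc27*, *Aurkb* and *Top2a*, so that 4 of the 6 were APC/C subunits. Wild-type 3 and S138A C were set apart for their deviation in these same counts, not by a label. The term and the omission that follow rest on that choice, so their p-values may be too small. A model term marking the pair of deviating libraries gave 3 members higher (6.98%, against 14.6% of all genes) and 8 lower (18.6%, against 13%). In the 4 libraries without wild-type 3 and S138A C, 4 members were called higher (9.3%, against 15.3% of all genes) and 11 lower (25.6%, against 14.3%), and all 8 members called with the block were among them. DESeq2, with no block, called 0 members higher (against 2.62% of all genes) and 2 lower (4.65%, against 2.33%), *Anapc11* and *Cdc27*. The direction of each of the 8 members was the same under the 15 processing settings tried.

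**Figure D3:**
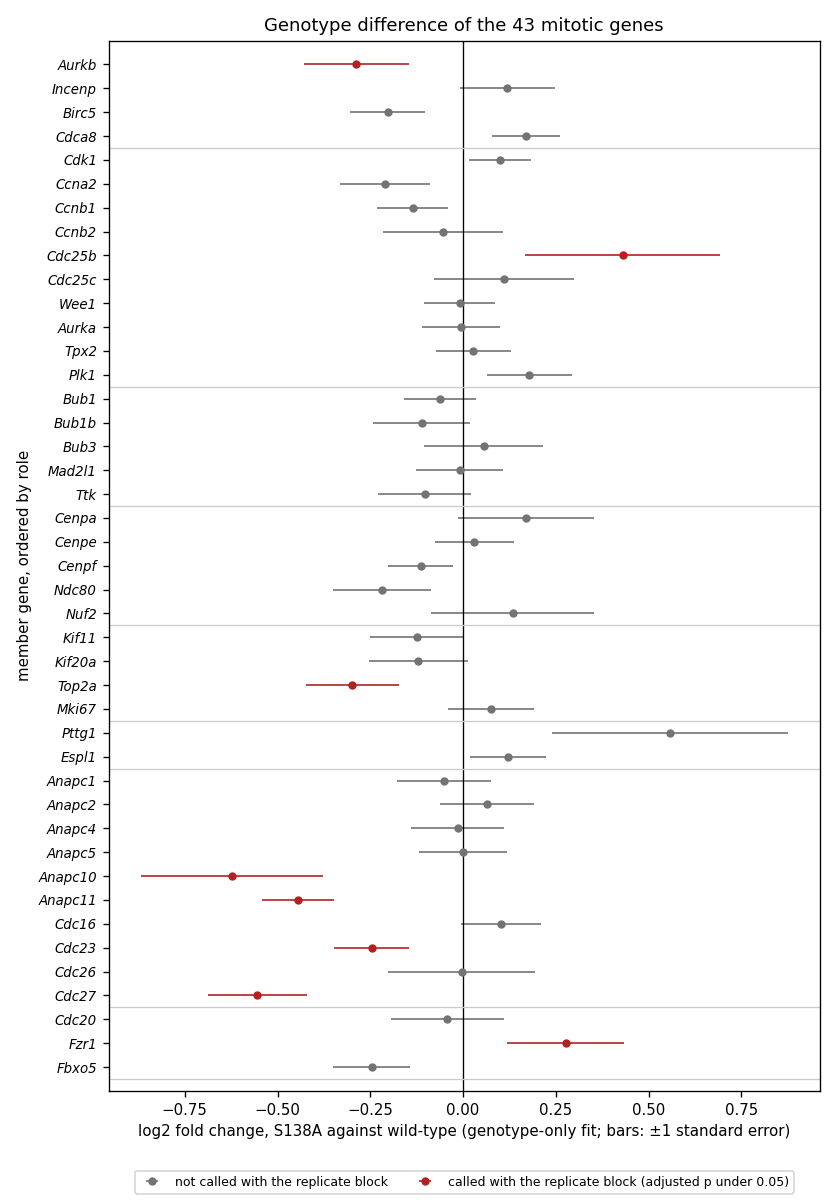
Log2 fold change of S138A against wild-type for each of the 43 genes, from the fit with genotype only, with bars of 1 standard error and genes ordered by role. The 8 genes in red were called by edgeR with the replicate block, and edgeR with genotype alone called 0.

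Among the 10 APC/C subunits of the set, 4 were lower in every S138A library than in any wild-type library, beside 10.9% of all genes. The same 4 were called lower with the replicate block, beside 9.13% of all genes. *Cdc27* encodes a tetratricopeptide-repeat subunit (APC3) to which the coactivators bind, and lies at chr11:104502745-104550620 on GRCm38. Its levels were 166, 164 and 137.6 CPM in wild-type 1, 2 and 3 and 112, 116 and 90.3 in S138A A, B and C. The means were 156 ± 15.7 and 106 ± 13.8 CPM (SD, n = 3), and the groups did not overlap. The log2 fold change was -0.56 (SE 0.13), with an edgeR adjusted p of 0.198 without the block, 0.00592 with it and 0.0148 by DESeq2, in a range from 0.000899 to 0.623 over the 15 settings. *Anapc11* encodes the RING subunit that takes up the ubiquitin-conjugating enzyme, at chr11:120598421-120608198. It gave 55.4, 58.5 and 56.1 CPM in wild-type and 38.5, 42.2 and 44.2 in S138A. This was the member with the tightest libraries among the 4, with means of 56.7 ± 1.59 and 41.6 ± 2.89 CPM, and wild-type 3 and S138A C did not stand apart in it. Its log2 fold change was -0.45 (SE 0.10), with an edgeR adjusted p of 0.191, 0.0118 with the block and 0.00228 by DESeq2, in a range from 0.00228 to 0.623.

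*Anapc10* encodes the subunit that helps recognise the destruction box of substrates, and it had the lowest CPM of the 10 member subunits. It gave 21.1, 18.6 and 14.6 CPM (697, 588 and 556 counts) in wild-type and 14.3, 12.8 and 8.20 CPM (492, 471 and 304 counts) in S138A. Both wild-type 3 and S138A C were the lowest of their genotypes, and the highest S138A library lay just under the lowest wild-type library. The log2 fold change was -0.62 (SE 0.25), with an edgeR adjusted p of 0.328, 0.0113 with the block, and a range from 0.00420 to 0.729 over the settings. *Cdc23* encodes another tetratricopeptide-repeat subunit (APC8). Its levels of 174, 174 and 156 CPM in wild-type and 153, 139 and 133 in S138A gave a log2 fold change of -0.25 (SE 0.10), with an edgeR adjusted p of 0.337, 0.0397 with the block, and a range from 0.0183 to 0.729. *Cdc23* and *Kif20a* converge and share 1271 exon bases on opposite strands, 13.4% of the exon bases of *Cdc23*. The strand setting of the counting is not given in the sources used here, so reads there could be counted for either gene.

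The other 6 member subunits overlapped between genotypes, with log2 fold changes from -0.05 to 0.10. *Anapc2*, the cullin subunit that holds *Anapc11* at the catalytic core, gave 66.8, 71.3 and 86.0 CPM in wild-type and 76.8, 72.5 and 85.0 in S138A, a log2 fold change of 0.06 (SE 0.13). *Anapc1*, the largest scaffold subunit, gave a log2 fold change of -0.05 (SE 0.13) and *Anapc5* one of 0.00 (SE 0.12). *Cdc16*, a tetratricopeptide-repeat subunit like *Cdc27* and *Cdc23*, gave 41.6, 39.1 and 40.9 CPM in wild-type and 44.0, 39.3 and 47.3 in S138A. Intervals of 2 standard errors around these differences ran from -0.11 to 0.32 for *Cdc16* and from -0.40 to 0.39 for *Cdc26*, the least precise of them. Summed over the 10 member subunits, wild-type gave 889, 889 and 788 CPM and S138A gave 781, 783 and 714. The highest S138A library lay just under the lowest wild-type library. This sum includes *Anapc10*, *Anapc11*, *Cdc23* and *Cdc27*, already found lower without overlap, so it does not show a drop across the complex. The median log2 fold change over the 10 was -0.03, with 2 above 0 and 8 below. The subunits *Anapc7*, *Anapc13*, *Anapc15* and *Anapc16*, outside the set, had log2 fold changes of 0.08, 0.07, -0.09 and -0.07. They overlapped between genotypes and were not called with or without the block.

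*Cdc20*, which activates the APC/C in mitosis, gave 399.6, 401 and 313 CPM in wild-type and 388, 393 and 299.8 in S138A, a log2 fold change of -0.04 (SE 0.15). Its interval of 2 standard errors ran from -0.35 to 0.26, and with the block the log2 fold change was -0.04 with an edgeR adjusted p of 0.639. *Fzr1*, whose product CDH1 activates the APC/C after mitosis and in G1, gave 137.8, 137 and 112 CPM in wild-type and 170.3, 173 and 125 in S138A. S138A C lay below wild-type 1 and 2, so the groups overlapped. Each S138A library was above the wild-type library with the same final digit in its column name, a pairing that the labels do not give. The log2 fold change was 0.28 (SE 0.16), with an edgeR adjusted p of 0.483, 0.0366 with the block, and a range from 0.00501 to 0.754. Without wild-type 3 alone the log2 fold change was 0.18. Within a library the count ratio of *Cdc20* to *Fzr1* needs no scaling between libraries. It was 2.90, 2.93 and 2.79 in wild-type ESCs and 2.28, 2.27 and 2.40 in S138A, with means of 2.87 ± 0.0766 and 2.32 ± 0.0744 (SD, n = 3). All 3 S138A ratios lay below all 3 wild-type ratios. The difference of -0.31 on the log2 scale had a p of 0.1 in a 2-sided exact permutation test, the smallest that 3 against 3 libraries allow, and 0.3 adjusted over the 3 ratios compared. Without wild-type 3 and S138A C the difference was -0.36.

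*Fbxo5* encodes EMI1, the inhibitor that keeps the APC/C off in S and G2 phase. Its levels were 139, 141 and 117 CPM in wild-type and 114, 112 and 108 in S138A, and every S138A library lay below every wild-type library. The log2 fold change was -0.25 (SE 0.10), with an edgeR adjusted p of 0.356 and of 0.0554 with the block. The test passed in the 4 libraries without wild-type 3 and S138A C, at -0.31 with an adjusted p of 0.00622, in a range from 0.00622 to 0.758 over the settings.

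**Figure D4:**
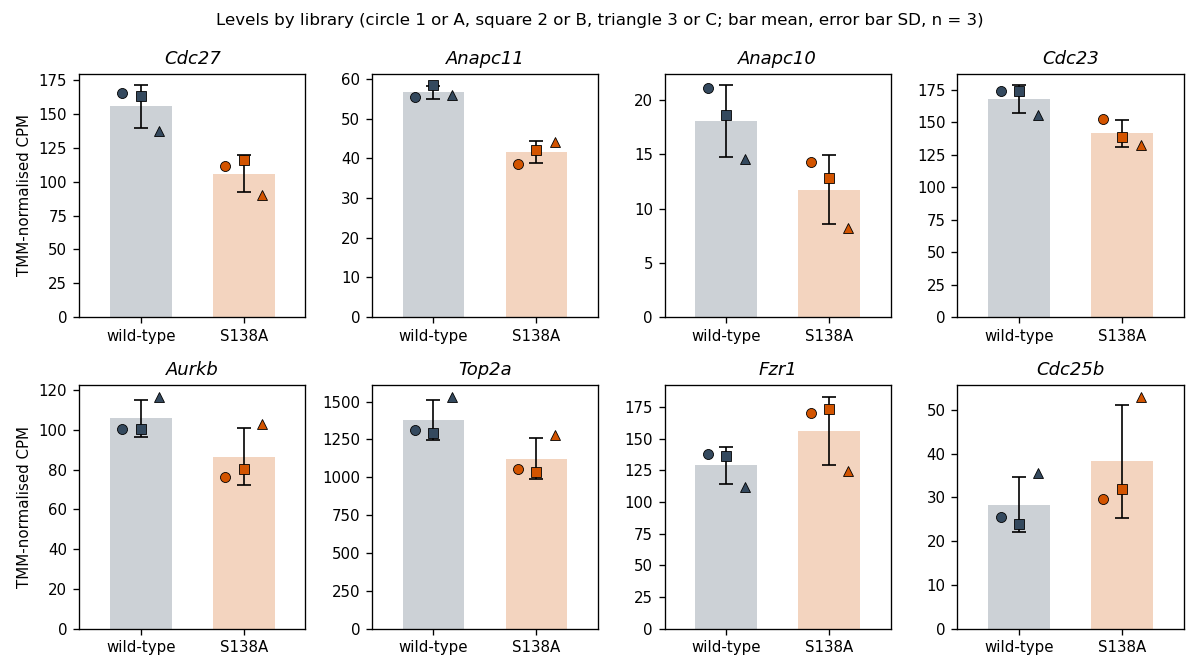
TMM-scaled CPM of the 8 genes called with the replicate block, by library: bars are means, error bars SD (n = 3), and circle, square and triangle mark libraries 1 or A, 2 or B and 3 or C. The genotypes do not overlap for *Cdc27*, *Anapc11*, *Anapc10*, *Cdc23* and *Top2a*, and overlap for *Aurkb*, *Fzr1* and *Cdc25b*.

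**Figure D5:**
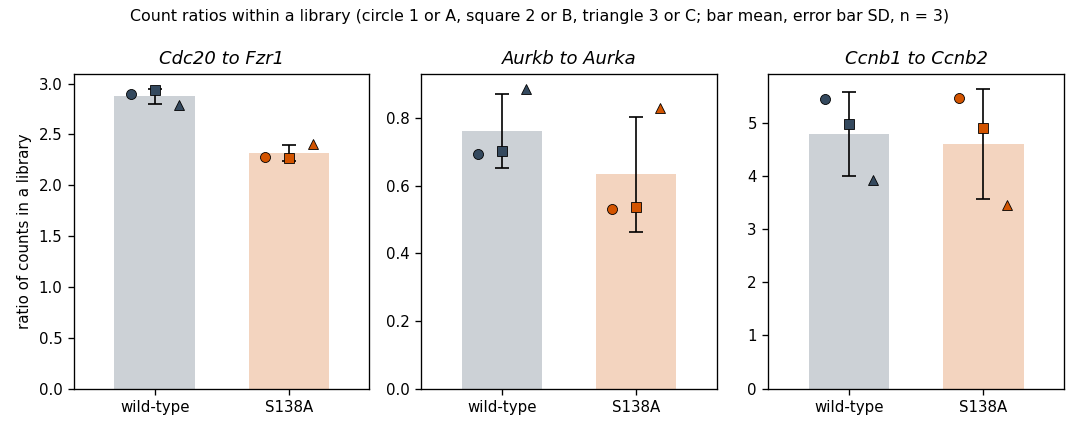
Ratio of counts of a pair of members within each library, with means as bars and SD as error bars (n = 3) and the same symbols for libraries. *Cdc20* to *Fzr1* separates the genotypes at 2.87 against 2.32, whereas *Aurkb* to *Aurka* and *Ccnb1* to *Ccnb2* overlap.

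In the chromosomal passenger complex, which corrects faulty attachments and guides cytokinesis, the 4 members had log2 fold changes of both signs. With the block 1 was called, as lower, beside 9.13% of all genes. In the study, the product of *Aurkb* phosphorylates the serine that S138A replaces, and its active form was unaffected by the mutation on western blots. That is a measure of protein and not of RNA. *Aurkb*, the kinase of the complex, gave 100.3, 100.4 and 117 CPM in wild-type and 76.4, 80.6 and 103 in S138A. S138A C lay above wild-type 1 and 2, so the groups overlapped. Each S138A library was below the wild-type library with the same final digit in its column name, a pairing that the labels do not give. Its log2 fold change was -0.29 (SE 0.14), with an edgeR adjusted p of 0.416, 0.0295 with the block and 0.00486 in the 4 libraries, in a range from 0.00486 to 0.707. Without S138A C alone the log2 fold change was -0.43. *Aurka*, the Aurora kinase of spindle poles, gave a log2 fold change of -0.01 (SE 0.11). The count ratio of *Aurkb* to *Aurka* was 0.695, 0.702 and 0.888 in wild-type ESCs and 0.532, 0.538 and 0.831 in S138A, and the groups overlapped (2-sided exact permutation test, p = 0.3, adjusted 0.45). Survivin, borealin and INCENP anchor the kinase to the centromere. *Birc5* gave 145, 146 and 131 CPM in wild-type and 130.2, 125 and 111 in S138A, which did not overlap, with a log2 fold change of -0.20 (SE 0.10) and an edgeR adjusted p of 0.0637 with the block. *Cdca8* lay on the other side without overlap, at 116, 119 and 113 CPM in wild-type and 130.0, 139 and 122 in S138A, a log2 fold change of 0.17 (SE 0.09) and 0.113 as the adjusted p with the block. *Incenp* overlapped at 184, 188 and 161 CPM in wild-type and 207, 207 and 163 in S138A. The summed level of the complex was 544, 553 and 522 CPM in wild-type and 544, 552 and 499 in S138A.

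Of the 10 kinases, phosphatases and cyclins of mitotic entry, *Cdc25b* was called higher with the block, beside 10.7% of all genes. The other 9 were not called, beside 9.13% of all genes called lower. *Cdc25b* encodes a phosphatase that removes inhibitory phosphates from CDK1. It gave 25.5, 24.0 and 35.6 CPM in wild-type and 29.7, 31.9 and 53.03 in S138A, with S138A C far above the other libraries and S138A A and B below wild-type 3. Its log2 fold change was 0.43 (SE 0.26), with an edgeR adjusted p of 0.511, 0.0247 with the block, and a range from 0.00893 to 0.851. Without wild-type 3 and S138A C the log2 fold change was 0.31, with an adjusted p of 0.0201. Without S138A C alone it was 0.12. *Plk1*, the Polo-like kinase, gave 179, 183 and 167 CPM in wild-type and 205, 220.0 and 173 in S138A, a log2 fold change of 0.18 (SE 0.11) with an edgeR adjusted p of 0.534 and of 0.122 with the block. *Ccna2*, which encodes cyclin A2, gave 435, 422 and 352 CPM in wild-type and 383, 319 and 342 in S138A, a log2 fold change of -0.21 (SE 0.12) with an adjusted p of 0.490. It shares 510 exon bases with *Exosc9* on the opposite strand, 12.5% of its own. *Cdk1* itself separated the genotypes by a small margin, at 122, 122 and 117 CPM in wild-type against 131, 130.5 and 125 in S138A, a log2 fold change of 0.10 (SE 0.08).

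The remaining entry genes were close to 0. *Ccnb1* gave 515, 489 and 454 CPM in wild-type and 470.0, 436 and 421 in S138A, a log2 fold change of -0.14 (SE 0.10). *Wee1*, the kinase that opposes CDC25, gave a log2 fold change of -0.01 (SE 0.10), *Tpx2*, the activator of Aurora A, one of 0.03 (SE 0.10), and *Ccnb2* one of -0.05 (SE 0.16). The count ratio of *Ccnb1* to *Ccnb2* was 5.47, 4.99 and 3.93 in wild-type ESCs and 5.47, 4.91 and 3.46 in S138A, and did not differ beyond the spread between libraries (2-sided exact permutation test, p = 0.7). In both genotypes that ratio was lowest in wild-type 3 and S138A C.

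None of the 5 spindle checkpoint genes was called with or without the block, and the groups overlapped for all 5. At an unadjusted p under 0.05 the count was 0, against 14.2% of all genes. DESeq2 also called 0, against 2.62% of all genes higher and 2.33% lower, and so did limma-voom, as it did over all genes. *Bub1b*, which encodes the inhibitor BUBR1, gave 194, 188 and 187 CPM in wild-type and 188, 144 and 195 in S138A. Only S138A B was low, and without it the log2 fold change of -0.11 (SE 0.13) became 0.01. *Ttk*, the kinase MPS1 that starts the checkpoint, gave 71.5, 66.2 and 54.0 CPM in wild-type and 58.1, 62.1 and 58.2 in S138A, a log2 fold change of -0.10 (SE 0.12). *Bub1* gave 137, 128 and 127 CPM in wild-type and 121, 118 and 136 in S138A. The log2 fold change of *Mad2l1*, whose product MAD2 binds CDC20, was -0.01 (SE 0.12), with an interval of 2 standard errors from -0.24 to 0.23.

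At the centromere and kinetochore, 0 of 5 members was called with the block and 2 lay below wild-type without overlap, beside 10.9% of all genes. *Ndc80*, of the complex that grips microtubules, gave 27.1, 23.1 and 21.02 CPM in wild-type and 20.8, 20.7 and 19.7 in S138A, a log2 fold change of -0.22 (SE 0.13) with an edgeR adjusted p of 0.507. *Cenpf*, of the outer corona, gave 436, 439 and 399 CPM in wild-type and 392, 388 and 397 in S138A, where S138A C lay only just under wild-type 3. *Nuf2*, the partner of *Ndc80*, gave 34.0, 18.8 and 27.3 CPM in wild-type and 31.7, 30.2 and 26.0 in S138A, and wild-type 2 was the lowest of the 6 libraries with 593 counts. *Cenpa*, the histone H3 variant of centromeres, gave 115, 117 and 131 CPM in wild-type and 109, 123 and 176 in S138A. Its log2 fold change of 0.17 (SE 0.18) rested on S138A C and was -0.06 without that library.

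Among the 4 motors and chromosome proteins, *Top2a* was called lower with the block, beside 9.13% of all genes. It gave 1315, 1293 and 1533 CPM in wild-type and 1056, 1031 and 1280.4 in S138A, and the groups did not overlap. Its log2 fold change was -0.30 (SE 0.13), with an edgeR adjusted p of 0.353, 0.0173 with the block and 0.00311 in the 4 libraries, in a range from 0.00311 to 0.672. *Kif11*, the motor that pushes spindle poles apart, gave 254, 245 and 195 CPM in wild-type and 226, 215 and 197 in S138A. *Kif20a*, a cytokinesis motor, gave 474, 459.9 and 373 CPM in wild-type and 423, 427 and 352 in S138A, and 29.3% of its exon bases are those shared with *Cdc23*. Both had a log2 fold change of -0.12 (SE 0.13). The proliferation marker *Mki67* gave a log2 fold change of 0.08 (SE 0.12), with 645 to 771 CPM in wild-type and 697 to 834 in S138A.

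Securin and separase, the inhibitor and the protease of sister separation, were not called with genotype alone or with the block. *Pttg1* (securin), an APC/C substrate, gave 22.6, 24.0 and 29.0 CPM in wild-type and 27.2, 26.3 and 57.8 in S138A. S138A C was 2.16 times the mean of S138A A and B, the largest such ratio of the 43 genes, and the log2 fold change was 0.56 (SE 0.32) with all libraries and 0.20 (SE 0.07) without wild-type 3 and S138A C, and was 0.08 without S138A C alone. *Pttg1* was called in 1 of the 15 settings, the model term for the pair of deviating libraries, with an edgeR adjusted p of 0.0424 in a range from 0.0424 to 0.825. *Espl1* (separase) gave 225, 241 and 250.1 CPM in wild-type and 252, 241 and 285 in S138A, a log2 fold change of 0.12 (SE 0.10) with an edgeR adjusted p of 0.638.

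Wild-type 3 and S138A C were both lowest at 22 of the 43 members (*Cdc20*, *Plk1* and *Aurka* among them), against 33.8% of all genes, and both highest at 9, against 34%. These 9 were *Aurkb*, *Ccnb2*, *Cdc25b*, *Cdc25c*, *Cenpa*, *Top2a*, *Pttg1*, *Espl1* and *Anapc2*. The median member in wild-type 3 was 0.903 times the mean of wild-type 1 and 2, and in S138A C 0.947 times the mean of S138A A and B, beside 0.998 and 0.996 over all genes. In S138A C the ratios ran from 0.606 for *Anapc10* to 2.16 for *Pttg1*, and in wild-type 3 from 0.678 for *Cdc26* to 1.44 for *Cdc25b*. All 3 members of the role of coactivators and inhibitor, and 7 of the 10 APC/C subunits, were lowest in both libraries.

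The other genes of mitosis, 92 in 7 lists, gave 0 calls with genotype alone by edgeR, as did all genes. DESeq2 called 0 of them, against 2.62% of all genes higher and 2.33% lower. At an unadjusted p under 0.05 edgeR gave 8 of the 92, against 14.2% of all genes. Their median log2 fold change was -0.07 (32 above 0 and 60 below). With the block 2 were higher (2.17%, against 10.7% of all genes) and 9 lower (9.78%, against 9.13%). In the 6 further APC/C subunits and conjugating enzymes there was no call in either direction, with *Ube2c*, the enzyme that starts the ubiquitin chain on APC/C substrates, at 228 ± 21.6 CPM in wild-type and 214 ± 7.58 in S138A, and *Ube2s*, which extends it, at 345 ± 29.0 and 380.1 ± 27.0. In the outer kinetochore 3 of 15 were lower with the block. *Spc24*, of the NDC80 complex, gave 72.5, 73.8 and 53.4 CPM in wild-type and 49.3, 52.3 and 41.1 in S138A (edgeR adjusted p of 0.268, and 0.0101 with the block). *Mis12*, which links it to the inner kinetochore, gave 94.9, 92.0 and 87.3 against 77.1, 76.6 and 62.4 CPM, with 0.0210 as the adjusted p with the block. The third was *Ska2*. In the inner kinetochore 0 of 15 was called, where *Cenpm* had a log2 fold change of 0.28 and *Cenpo* of -0.22.

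Among 16 genes of condensin and cohesin, 3 were lower with the block, where 9.13% of all genes were lower and 10.7% higher. They were *Pds5a* and *Wapl*, both regulators of the release of cohesin, at log2 fold changes of -0.28 and -0.29, and *Smc2* at -0.24. Of 10 further checkpoint and entry regulators, *Pkmyt1*, a kinase that inhibits CDK1, was higher with the block at 0.43 and *Sgo2a*, a protector of centromeric cohesin, lower at -0.26. With genotype alone the smallest unadjusted p in that list, 0.0549, belonged to *Cdc25a*, at a log2 fold change of -0.24. Of 16 kinesins and cytokinesis genes, 1 was higher with the block (*Kifc1*) and 1 lower (*Kif20b*). *Kif18a* at -0.22 and *Kif18b* at 0.23, motors that act on microtubule ends, had the smallest p-values in that list and neither was called with the block. Of 14 regulators of mitotic transcription, 1 was lower with the block (*Tfdp1*), and *Foxm1*, a factor that acts on CHR promoters, had a log2 fold change of 0.22 and *Nfyb*, a subunit of the CCAAT factor, of -0.20. *Ska2*, *Smc2*, *Pkmyt1*, *Kifc1*, *Kif20b* and *Tfdp1* were named after their values were seen.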

How the data were processed

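The deposited file is a single table of raw counts per gene, made by the authors from 6 libraries. Per the submitters' processing notes, reads were handled with CASAVA 1.8.4, aligned with TopHat2 2.0.11 to mm9 (NCBIM37) and counted with featureCounts, whose version and strand setting are not given in the sources used here. RNA was taken with Trizol from counted cells, and 500 ng went into Illumina TruSeq Stranded mRNA libraries. Gene symbols matched 32897 of 37620 identifiers (87.4%). Positions, transcript lengths and overlaps come from GENCODE M21 and promoters from RefSeq, both on GRCm38, so they describe the genes and were not used with the alignments.

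Genes passing filterByExpr (minimum count 10, minimum total 15) were tested in R 4.3.3 with edgeR 4.0.16 (TMM factors, quasi-likelihood test on genotype), with Benjamini-Hochberg adjustment over all 16023 genes. A gene was called at an adjusted p under 0.05. CPM are TMM-scaled. Count ratios were tested with an exact permutation test (scipy 1.17.1), and copies were sought with BLAST 2.17.0. Scripts were tested on simulated counts. Tried instead were scaling by RLE or by the upper quartile, omitting the filter or setting it at 1 CPM, DESeq2 1.42.0, limma-voom (limma 3.58.1), an adjusted p under 0.01, a log2 fold change of at least 1, a replicate block, a term that sets wild-type 3 with S138A C against the rest, their omission, and the omission of each library.

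The numbers of the block come from the final digit of the column names, not from the labels of the S138A samples. Same-numbered libraries deviated together, with correlations over genes of 0.53, 0.493 and 0.753, but wild-type 1 with S138A B (0.515) and wild-type 2 with S138A A (0.526) did so as closely.

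The members and all lists were chosen with earlier results of these data known. Named with all statistics were the passenger genes, *Cdc20*, *Fzr1*, every member called with genotype alone or with the block, and the 3 members of each role with the smallest p (25 genes), and of each other list up to 2 with the smallest p. Other members are given as examples of their role.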

Additional observations from a re-analysis of the deposited data

How the results depend on the processing

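With genotype alone 0 members were called, and the count stayed 0 with RLE or upper-quartile factors, no filter, a filter of 1 CPM, limma-voom, the stricter thresholds and each library left out. DESeq2 called 0 members higher and 2 lower, the replicate block 2 and 6, the term for wild-type 3 and S138A C 3 and 8, and the 4 libraries without them 4 and 11. Over all genes the calls were 2 higher and 2 lower with no filter, 420 and 374 with DESeq2, 1717 and 1463 with the replicate block, 2338 and 2080 with the term, 2463 and 2293 in the 4 libraries, and 0 to 59 higher and 0 to 20 lower with a library left out, the upper ends without S138A C. The other mitosis lists gave 2 higher and 9 lower with the block, 4 and 16 with the term, and 6 and 20 in the 4 libraries. The median log2 fold change of the members, -0.01, ranged from -0.0865 to 0.00810 with a library left out, the lowest without wild-type 3, and was 0.02 with upper-quartile factors.

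Values near 0 changed sign with a library left out. *Ube2d3* ranged from -0.249 to 0.156 (0.0433 without wild-type 1, 0.0190 without wild-type 2 and the upper end without S138A C), *Bub1b* from -0.198 to 0.00616 (the upper end without S138A B), *Cenpa* from -0.0623 to 0.303 (the lower end without S138A C, and -0.000567 in the 4 libraries) and *Cdc20* from -0.154 to 0.0711 (0.00810 without wild-type 1, 0.0119 without wild-type 2 and the upper end without S138A C). The log2 difference of *Ccnb1* to *Ccnb2* ranged from -0.205 to 0.127, with 0.0333 without wild-type 1 and the upper end without S138A C, and that of *Cdc20* to *Fzr1* from -0.337 to -0.295. The highest of the 10 member APC/C subunits over the lowest was 14.0 per kilobase of transcript and 9.29 undivided. It was 14.5 per kilobase of coding length (added after seeing the data, and with other subunits at the ends). The cause of these changes was not tested. With 3 libraries a genotype, an exact permutation test of a single gene cannot go below 0.1.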
